A study of Mus musculus with 4 samples.

Results

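Mitochondrial ribosomal protein genes are the nuclear genes for the protein subunits of the ribosome that works inside mitochondria. They were taken as the protein-coding genes with a symbol made of Mrpl or Mrps and a number, pseudogenes left out. This gave 77 members of 45232 gene identifiers in the count files, 48 named for the large subunit (Mrpl) and 29 for the small subunit (Mrps). One further symbol of the pattern, Mrpl33, was not analysed here. RNA was sequenced from leukemic granulocyte-macrophage progenitors (L-GMPs), the cells of an MLL-AF9 leukemia that resemble normal granulocyte-macrophage progenitors. MLL-AF9, a fusion protein that drives acute myeloid leukemia, was present in every group: all 4 libraries came from mice that were secondary recipients of such a leukemia. The cells were sorted when the mice died, as CD34+, CD16/32+, c-Kit+ and Sca-1+ cells that were also GFP+ and tdTom+, from 2 mice labelled Scr and 2 labelled miR-99 KD, and the comparison asks what reducing the microRNA miR-99 does to gene expression. The labels do not expand Scr or KD, name no strain, age or delivery vector, and do not say whether the 4 recipients shared 1 primary leukemia.

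The mitochondrial ribosome translates the few messenger RNAs of the mitochondrial genome, which encode core subunits of the respiratory chain and of ATP synthase. Its ribosomal RNAs are encoded in mitochondrial DNA, while all of its proteins are encoded in the nucleus, made on cytosolic ribosomes and imported. Some of these proteins descend from bacterial ribosomal proteins and others are found only in mitochondrial ribosomes. Acute myeloid leukemia cells are known for their reliance on mitochondrial translation, and drugs that inhibit bacterial-type ribosomes reduce it.

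A microRNA recognises messenger RNAs mainly through its seed, bases 2 to 8, so the mature sequences of the targeted family are shown first, from RefSeq on GRCm38.p6, 5′ to 3′ with the seed in capitals.
mmu-miR-99a-5p: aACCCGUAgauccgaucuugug
mmu-miR-99b-5p: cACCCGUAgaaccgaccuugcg
mmu-miR-100-5p: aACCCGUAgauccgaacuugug
The 3 sequences share 1 seed. Its match was searched as TACGGGT, or as ACGGGTA for the shorter match followed by A. The search covered the 3′ untranslated region (UTR) of every coding transcript in GENCODE M21, and a gene counted if any of its transcripts held a match. It was present in 0 of the 77 members and in 315 of 12361 protein-coding genes tested (2.55%). The members' UTRs are shorter: the longest UTR per gene had a median of 390 bases against 1158. This says only that these letters are not in those UTRs. Mature miR-99 is not measured by these counts, and the precursor genes Mir99a, Mir99b and Mir100 were at 0 counts in all 4 libraries, so the counts hold no check of the knockdown. The host transcript Mir99ahg, which a knockdown of the mature microRNA need not lower, had 59 counts in Scr 1 and 1 to 3 counts in the other libraries.

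Promoter windows of 300 bases, from 250 before to 50 after each gene's start, were held by RefSeq on GRCm38.p6 for 68 of the 77 members. They were searched on both strands for CCGGAAG, a core that ETS factors such as GABP bind, GCATGCG, the core of the NRF1 site, GATGGCG, a YY1 core, and CACGTG, the E-box bound by Myc. Each of these factors has been described at promoters of nuclear genes for mitochondrial proteins. The ETS core was in 25 of the 68 members (36.8%), against 20.0% of the 10424 tested genes with a window and 9.93% of all 27025 genes with one. The NRF1 core was in 7 members (10.3%, against 7.11% and 4.01%) and the YY1 core in 8 (11.8%, against 7.32% and 4.04%). The E-box was in 5 members (7.35%, against 11.6% and 8.09%). Because NRF1 cores can lie on both strands of 1 palindrome, they were counted once per gene, and 37 members held at least 1 of the 4 motifs. Shown are 4 windows with these motifs in capitals. Mrpl22, which codes for a protein lining the exit tunnel, carries an ETS and an NRF1 core close to its start. Mrps18b carries both as well. Mrps11 carries a YY1 core and is shown because it starts 42 bases from Mrpl46, on the opposite strand. Mrps15 holds none of the 4 motifs and had the smallest p of any member.
Mrpl22, chr11:58171414-58171713, plus strand: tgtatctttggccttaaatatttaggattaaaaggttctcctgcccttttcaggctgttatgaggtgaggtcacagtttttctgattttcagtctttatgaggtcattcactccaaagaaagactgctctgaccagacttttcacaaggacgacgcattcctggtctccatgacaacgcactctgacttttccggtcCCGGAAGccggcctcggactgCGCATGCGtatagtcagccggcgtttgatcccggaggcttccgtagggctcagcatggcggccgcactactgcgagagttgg
Mrps18b, chr17:35916391-35916690, minus strand: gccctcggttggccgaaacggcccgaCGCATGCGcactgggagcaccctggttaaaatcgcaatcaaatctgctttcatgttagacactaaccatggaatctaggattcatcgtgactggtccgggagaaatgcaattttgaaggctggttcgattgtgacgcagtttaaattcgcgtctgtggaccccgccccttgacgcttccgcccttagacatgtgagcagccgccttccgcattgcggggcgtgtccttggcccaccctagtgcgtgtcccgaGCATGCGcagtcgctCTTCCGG
Mrps11, chr7:78782881-78783180, plus strand: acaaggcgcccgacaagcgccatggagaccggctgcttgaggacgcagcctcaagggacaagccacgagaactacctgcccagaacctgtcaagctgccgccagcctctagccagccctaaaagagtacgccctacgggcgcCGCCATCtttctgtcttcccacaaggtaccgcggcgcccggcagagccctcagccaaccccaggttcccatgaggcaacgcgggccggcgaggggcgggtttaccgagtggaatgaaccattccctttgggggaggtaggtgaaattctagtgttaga
Mrps15, chr4:126046678-126046977, plus strand: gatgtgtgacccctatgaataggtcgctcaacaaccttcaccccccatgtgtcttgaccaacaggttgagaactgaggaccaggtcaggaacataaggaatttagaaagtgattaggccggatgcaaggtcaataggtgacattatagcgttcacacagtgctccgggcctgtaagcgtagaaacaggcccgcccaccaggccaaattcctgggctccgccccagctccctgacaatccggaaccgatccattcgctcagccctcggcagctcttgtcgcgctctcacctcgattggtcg

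Gene counts per library ran from 38458519 to 42674407. Scr 1 stood apart: it had a count in 28573 genes, against 21372 to 24038 in the other 3 libraries, and its olfactory receptor genes, which blood cells do not use, summed to 51.9 CPM (counts per 1000000 counts of the library, here by totals alone), against 4.78 to 15.0. Its correlation with Scr 2 was 0.968 on log2 CPM, against 0.978 between Scr 2 and miR-99 KD 1 and 0.977 between the miR-99 KD libraries, and the other 3 pairs, Scr 2 with miR-99 KD 2 among them, were at 0.957 to 0.958. Of the markers of the sort, Kit was at 424 and 437 CPM in Scr and 307 and 234 CPM in miR-99 KD. Cd34 was at 292 to 356 CPM and Fcgr3 at 382 to 486 CPM. Ly6a, the gene of Sca-1, was at 0.0948 to 0.197 CPM. The sort is given as Sca-1+, yet RNA of that gene was nearly absent, and the reason was not tested. The 13 granulocyte markers summed to 5982 and 4446 CPM in Scr and 11496 and 24710 CPM in miR-99 KD, and 12 of the 13 had a positive fold change. For 10 of the 13, miR-99 KD 2 was the highest library. Markers of T and NK cells summed to at most 2.12 CPM and those of B cells to at most 2.36 CPM, while the 10 erythroid markers summed to 53.2 to 130 CPM. Of the 5 markers of stroma and endothelium, Pecam1 was at 115 CPM in both Scr libraries and at 154 and 136 CPM in miR-99 KD. The other 4, Col1a1, Col1a2, Cxcl12 and Cdh5, were each at most 3.01 CPM in any library, and the 3 of them that were tested had negative fold changes. The part of any of these cells in the members' values was not tested, and in bulk RNA fewer cells of a type and less RNA per cell cannot be told apart.

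All 77 members were expressed. The lowest count of any member in any library was 63, for Mrpl53 in Scr 1, and all 77 passed the filter on low counts. CPM values of the members and of all gene lists are scaled to library totals with TMM factors, which correct for a few genes taking a large share of a library. Together the members took 0.378% to 0.503% of the gene counts. To compare genes with each other, the mean CPM was divided by the length of the principal transcript in kb. On that scale the median member was at 32.1 CPM per kb and the median of all genes tested was at 6.80. The large subunit genes had a median of 38.4 and the small subunit genes one of 24.1 CPM per kb.

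**Figure D1:**
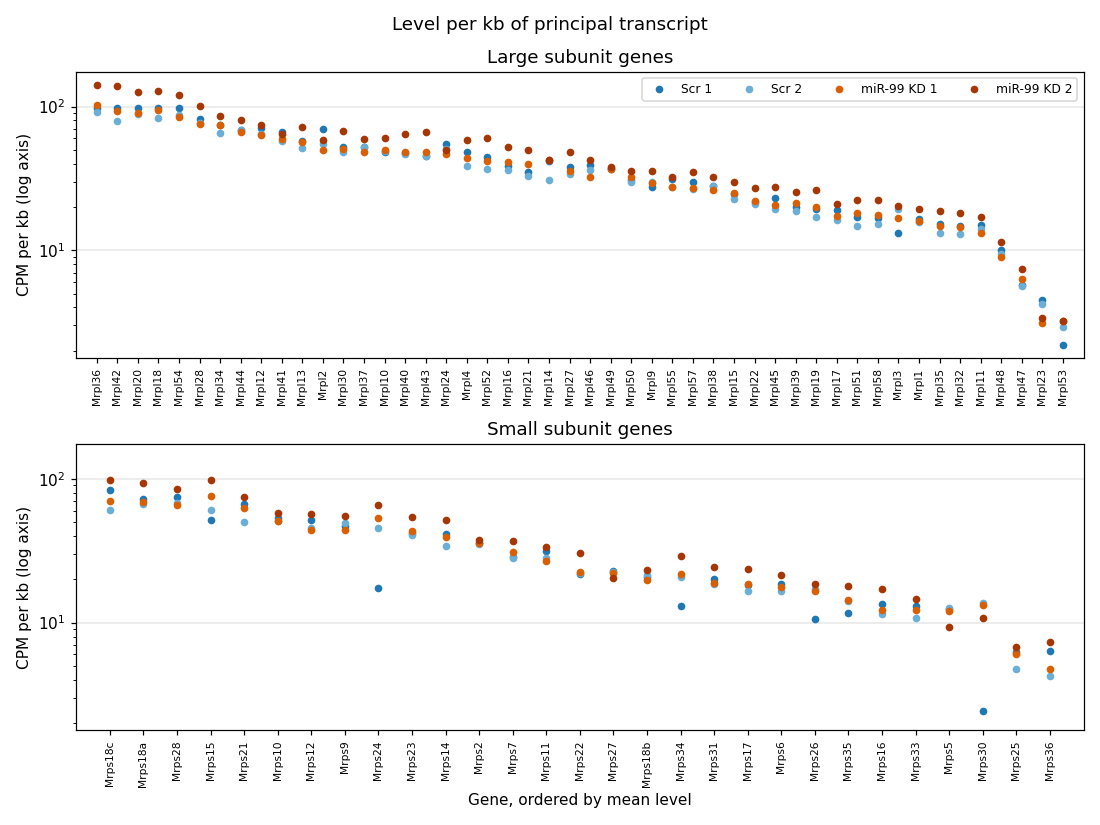
Level of each mitochondrial ribosomal protein gene in each library, in CPM per kb of principal transcript on a log axis, ordered by mean level within the large (top) and small (bottom) subunit. Most genes lie between 10 and 100 CPM per kb, Mrpl53, Mrpl23, Mrps25 and Mrps36 lie lowest, and Scr 1 lies far below the other libraries for Mrps30 and Mrps24.

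The highest large subunit genes by this measure were Mrpl36, Mrpl42 and Mrpl20. Mrpl36 codes for a very small protein of bacterial descent, and its level was 90.6 and 84.8 CPM in Scr and 94.6 and 131 CPM in miR-99 KD, a mean of 109 CPM per kb. Mrpl42, which has no bacterial relative, followed at 102 CPM per kb, with 65.1 and 52.5 CPM in Scr and 61.9 and 93.0 CPM in miR-99 KD. Mrpl20, a protein that binds the large ribosomal RNA, was at 101 CPM per kb, with 75, 68.2, 69.0 and 96.1 CPM in the same order. The ranges of these 3 genes per kb over the libraries overlapped, so their order is not separated from the spread. In all 3, miR-99 KD 2 was the highest library. Exons of Mrpl36 overlap those of Ndufs6 on the opposite strand, and with no strand setting given in the sources used here, reads of the pair cannot be told apart.

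In the small subunit the highest levels were those of Mrps18c at 78, Mrps18a at 75.8 and Mrps28 at 73.6 CPM per kb. Mrps18a, Mrps18b and Mrps18c are 3 copies of 1 bacterial protein that sit at different places of the mitochondrial ribosome: Mrps18a is built into the large subunit in spite of its name, and Mrps18b and Mrps18c into the small one. Mrps18c was at 53.2 and 38.7 CPM in Scr and 44.5 and 62.5 CPM in miR-99 KD. Mrps18a was at 64.5 and 59.2 CPM in Scr and 61.1 and 83.4 CPM in miR-99 KD. Mrps18b was lower, at 22.5, 23.1, 21.3 and 25.2 CPM or a mean of 21.3 CPM per kb, and on the scale per kb its libraries did not overlap those of the other copies. For each of the 3 copies miR-99 KD 2 was the highest library and the miR-99 KD 1 library lay below Scr 1.

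The lowest members per kb were Mrpl53 at 2.89, Mrpl23 at 3.80, Mrps36 at 5.67 and Mrps25 at 5.96 CPM per kb. Mrpl53, a protein known only from mitochondrial ribosomes, was at 1.53 and 2.05 CPM in Scr and 2.22 and 2.23 CPM in miR-99 KD. It shares exons with Gm42688 on the same strand and Ccdc142os on the opposite strand, so its counts are uncertain. Mrps36, in spite of its symbol now known as a component of the alpha-ketoglutarate dehydrogenase complex, was at 4.45 and 2.98 CPM in Scr and 3.34 and 5.14 CPM in miR-99 KD, with no separation of the groups. Mrps25 codes for a small subunit protein without a bacterial relative, and its values were 37.8 and 28.7 CPM in Scr and 36.9 and 41.3 CPM in miR-99 KD. Its long transcript puts it low on the scale per kb.

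Between the groups, the members were on the whole slightly higher in miR-99 KD, and none passed the test. Of the 77 members, 71 had a positive log2 fold change of miR-99 KD over Scr in edgeR's quasi-likelihood fit, which is 92.2%, against 49.0% of all 15591 genes tested. The median log2 fold change was 0.21 over the members and −0.01 over all genes. It was 0.20 in the large subunit, where 44 of 48 were positive and values ran from −0.43 to 0.40, and 0.22 in the small subunit, where 27 of 29 were positive and values ran from −0.23 to 0.92. When libraries were scaled by their totals alone, 61 of 77 were positive (79.2%, against 43.9% of all genes) and the median was 0.15. Without miR-99 KD 2, 50 of 77 were positive (64.9%, against 50.04% of all genes) and the median was 0.06.

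At an adjusted p of 0.05, edgeR called 0 members and 0 of all genes (0.0%), and the members' adjusted p-values lay between 0.621 and 0.991. DESeq2 called 0 members and 261 genes (1.67%), and limma-voom called 0 members and 0 genes (0.0%). At an unadjusted p under 0.05 edgeR gave 1 member higher, Mrps15, where 2.66% of all genes were higher, and 0 members lower, where 5.23% of all genes were lower. The share of members at that limit is near or below the background. With 2 libraries in a group the fit had 2 residual degrees of freedom.

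**Figure D2:**
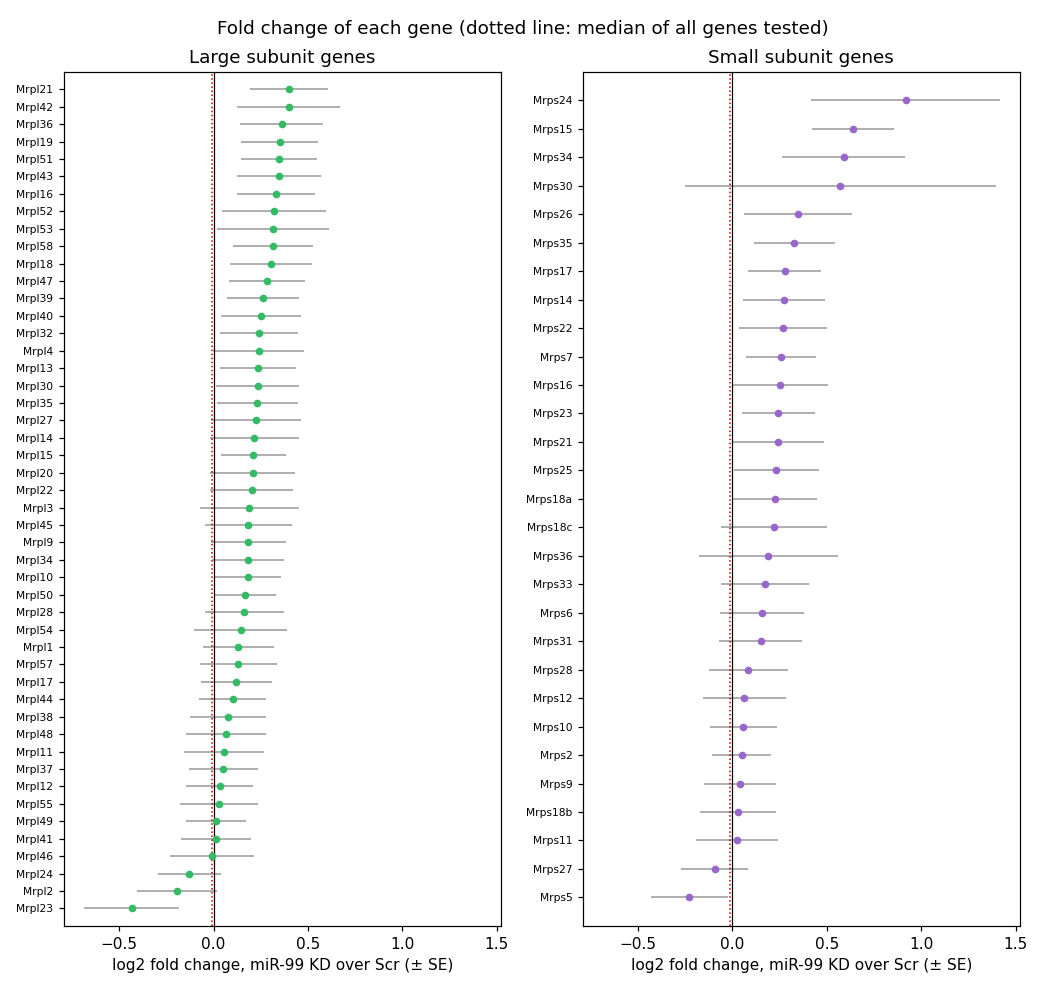
Log2 fold change of miR-99 KD over Scr for each gene, with its standard error from edgeR's quasi-likelihood fit of 2 against 2 libraries, for the large (left, green) and small (right, purple) subunit. Of the 77 points, 71 lie above 0, most between 0 and 0.5, and the dotted line marks the median of all genes tested at −0.01.

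In 24 members both miR-99 KD libraries lay above both Scr libraries, 31.2% of the members against 18.9% of all genes. In 4 members, Mrpl23, Mrpl24, Mrps5 and Mrps27, both lay below, 5.19% against 25.3% of all genes. In the other 49 members the groups overlapped. The 24 comprised 16 large subunit genes, Mrpl10, Mrpl14, Mrpl15, Mrpl16, Mrpl19, Mrpl21, Mrpl22, Mrpl36, Mrpl39, Mrpl40, Mrpl43, Mrpl47, Mrpl50, Mrpl51, Mrpl53 and Mrpl58, and 8 small subunit genes, Mrps7, Mrps15, Mrps17, Mrps22, Mrps23, Mrps24, Mrps34 and Mrps35. This count rests on small distances between miR-99 KD 1 and Scr. It was 5 with upper-quartile factors, 6.49% of the members, where 12.2% of all genes separated in that direction. With library totals alone it was 7, or 9.09%, where 12.7% of all genes did. Under both of these scalings the members' share was below that of all genes. With the size factors of DESeq2 the count was 24, or 31.2%, against 20.8% of all genes. Without Scr 1 the count was 52, against 30.6% of all genes, a value computed after the libraries had been compared.

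Library by library, the difference lay with miR-99 KD 2. It was the highest library for 69 of the 77 members (89.6%), against 30.6% of all genes tested, and for 64 to 71 members under the other scalings. It lay above both Scr libraries in 70 members, whereas miR-99 KD 1 did so in 24 and lay below Scr 1 in 48. The median log2 ratio to the mean of the Scr libraries was 0.36 for miR-99 KD 2 and 0.03 for miR-99 KD 1. The median log2 ratio of miR-99 KD 2 over miR-99 KD 1 was 0.32, against −0.04 over all genes, and that of Scr 1 over Scr 2 was 0.11. The difference between the 2 libraries of the miR-99 KD group was thus larger than the difference between the groups.

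**Figure D3:**
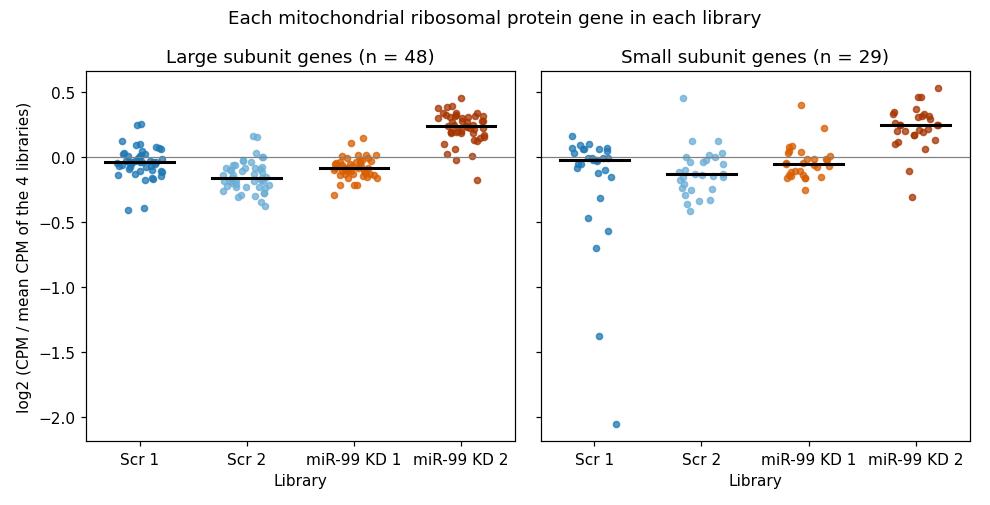
Each gene's CPM in each library relative to its mean over the 4 libraries, as a log2 ratio, for the 48 large (left) and 29 small (right) subunit genes. Points are genes and black bars are medians. miR-99 KD 2 is the highest library for 43 of the large and 26 of the small subunit genes, and a few small subunit genes lie far down in Scr 1.

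Summed over the 48 large subunit genes, the level was 2813 and 2598 CPM in Scr and 2724 and 3418 CPM in miR-99 KD. The means were 2706 ± 152 and 3071 ± 491 CPM (SD, n = 2 each), a ratio of 1.14. Over the 29 small subunit genes it was 1276 and 1298 CPM in Scr and 1366 and 1648 CPM in miR-99 KD. The means were 1287 ± 15.1 and 1507 ± 200 CPM (SD, n = 2 each), a ratio of 1.17. The groups overlapped in the large subunit and did not in the small one, where miR-99 KD 1 lay closer to Scr than to miR-99 KD 2. The sums were not tested: with 2 against 2 libraries an exact two-sided permutation test, which was not run, cannot go below 33.3%.

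The proportion of the subunits differed between the groups by less than the spread between libraries. The ratio of summed large to summed small subunit CPM took the values 2.20 and 2.00 for the Scr libraries, then 1.99 and 2.07 for the miR-99 KD libraries, a mean of 2.10 ± 0.142 and of 2.03 ± 0.0562 (SD, n = 2 each). The difference of −0.0694 was smaller than the SD between the Scr libraries. With Mrps18a and Mrps30 counted as large subunit proteins, where they sit in the mammalian ribosome, and Mrps36 left out, the difference was −0.0538. With 5 further subunits that bear other symbols added, it was −0.0459. Scr 1 was the highest of the 4 libraries each way.

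Mrps15, the small subunit protein that in bacteria binds early to the ribosomal RNA, had the smallest p of any member. It lies on chromosome 4, 126046925 to 126055532, plus strand (GRCm38, GENCODE M21). Its level was 48.7 and 56.6 CPM in Scr and 71.4 and 92.6 CPM in miR-99 KD. Both miR-99 KD libraries lay above both Scr libraries, with a distance of each miR-99 KD library from Scr 2 larger than that between the Scr libraries. The log2 fold change was 0.64 ± 0.22 (SE), with an edgeR adjusted p of 0.621, and it was between 0.47 and 0.87 with any 1 library left out.

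Mrps24 and Mrps34 were the next small subunit genes by p, and in both the lowest value was Scr 1. Mrps24, a protein of bacterial descent at the messenger RNA entry side, was at 17.4 and 45.1 CPM in Scr and 52.7 and 65.3 CPM in miR-99 KD. Its log2 fold change was 0.92 ± 0.50 (SE; edgeR adjusted p = 0.693) and 0.46 without Scr 1. Mrps34, a mitochondria-specific protein needed for a stable small subunit, was at 11.9 and 19.1 CPM in Scr and 20.0 and 26.7 CPM in miR-99 KD. Its log2 fold change was 0.59 ± 0.33 (SE; edgeR adjusted p = 0.696) and 0.37 without Scr 1. Both genes have exons that overlap another gene on the same strand, Urgcp for Mrps24 and Nme3 for Mrps34, so a part of their reads cannot be assigned.

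Mrps30 was the extreme case of a low Scr 1. It codes for a protein placed in the large subunit, and lies on chromosome 13, 118378381 to 118387252, minus strand. It was at 8.05 and 45.7 CPM in Scr and 44.1 and 35.7 CPM in miR-99 KD. Scr 1 was thus 5.68-fold below Scr 2, and the other 3 libraries lay close together. The log2 fold change of 0.57 ± 0.82 (SE; edgeR adjusted p = 0.850) turned to −0.13 without Scr 1. Of the members, 4 were over 1.5-fold lower in Scr 1 than in Scr 2, and 0 were over 1.5-fold higher. The 4 were Mrps24, Mrps26, Mrps30 and Mrps34, all small subunit genes by symbol, and Mrpl3 of the large subunit came next, at 52.0 CPM in Scr 1 and 77.1 CPM in Scr 2.

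Among large subunit genes the smallest p-values in the upward direction were those of Mrpl21 and Mrpl51. Mrpl21, of bacterial descent, was at 40.1 and 37.5 CPM in Scr and 45.4 and 57.0 CPM in miR-99 KD, a log2 fold change of 0.40 ± 0.21 (SE; edgeR adjusted p = 0.684). Mrpl51, specific to mitochondria, was at 58.8 and 50.7 CPM in Scr and 62.7 and 76.5 CPM in miR-99 KD, a log2 fold change of 0.35 ± 0.20 (SE; edgeR adjusted p = 0.701). In both genes miR-99 KD 1 lay only a little above the higher Scr library and miR-99 KD 2 well above it. Mrpl58, a peptidyl-tRNA hydrolase that frees stalled ribosomes and is also built into the large subunit, had the same order, with 43.3 and 39.8 CPM in Scr and 45.3 and 58.1 CPM in miR-99 KD.

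In 6 members the fold change was negative, 4 of the large and 2 of the small subunit. Mrpl23, whose bacterial relative lies at the exit of the peptide tunnel, was at 3.11 and 2.93 CPM in Scr and 2.15 and 2.32 CPM in miR-99 KD, from 89 to 128 counts per library. It had the most negative value of all members, −0.43 ± 0.25 (SE; edgeR adjusted p = 0.701), and its groups did not overlap. Mrps5, whose bacterial relative affects the accuracy of decoding, was at 55.4 and 56.6 CPM in Scr and 53.5 and 42.0 CPM in miR-99 KD, a log2 fold change of −0.23. Here miR-99 KD 2 was the lowest library, which it was for 2 members in all. The other was Mrps27, a pentatricopeptide repeat protein of the small subunit, with 42.4 and 41.5 CPM in Scr and 40.8 and 37.8 CPM in miR-99 KD.

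Mrpl24, another relative of a bacterial tunnel-exit protein, was at 73.8 and 67.6 CPM in Scr and 62.9 and 66.5 CPM in miR-99 KD. Mrpl2, which lies close to the peptidyl transferase centre, was at 71.7 and 56.7 CPM in Scr and 51.7 and 60.6 CPM in miR-99 KD. Their log2 fold changes were −0.13 and −0.19, and both turned to above 0 without Scr 1, at 0.01 and 0.06. Mrpl46 was level between the groups, at −0.01, with 44.8, 41.0, 36.7 and 48.5 CPM. Its divergent neighbour Mrps11, whose exons overlap its own on the other strand, had 33.3, 29.5, 28.3 and 35.6 CPM and a log2 fold change of 0.02. The 4 libraries took the same order in both genes of this pair, an order also found in other members, such as Mrpl12 and Mrps12. Reads of the stretch shared by Mrpl46 and Mrps11 cannot be assigned to either gene with certainty.

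In several members with known roles in disease or assembly the groups overlapped. Mrpl12, the stalk protein to which translation factors bind, was at 93.4, 84.1, 83.5 and 98.0 CPM, with Scr values between those of miR-99 KD. Mrpl44, a protein of the ribonuclease III family whose human gene is mutated in a cardiomyopathy, was at 98.6, 97.3, 94.8 and 115 CPM. Mrpl3, needed for the core of the large subunit, was at 52.0, 77.1, 66.7 and 80.4 CPM. These 3 genes had fold changes of 0.03, 0.10 and 0.19 on the log2 scale.

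Mrpl45, which ties the ribosome to the inner membrane, was at 56.1 and 47.0 CPM in Scr and 50.4 and 66.9 CPM in miR-99 KD. Mrps12, a protein of the decoding site, was at 46 and 39.9 CPM in Scr and 39.2 and 50.5 CPM in miR-99 KD. In both, miR-99 KD 1 lay among the Scr libraries or below them and miR-99 KD 2 was highest. Mrps22, a small subunit protein specific to mitochondria, was at 25.9 and 26.4 CPM in Scr and 26.7 and 36.2 CPM in miR-99 KD. Its 3 lower libraries lay within 1 CPM of each other. Leaving out miR-99 KD 2 brought its log2 fold change from 0.27 to 0.06.

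The medians by assigned descent lay close together. The 44 members assigned here to bacterial protein families had a median log2 fold change of 0.21, with 40 positive. The 33 not so assigned, Mrps36 among them, had one of 0.19, with 31 positive. This assignment was not checked against protein sequences, and some of the 33 may belong to such families. The 25 members with the ETS core had a median of 0.23, and the other members with a promoter window had one of 0.18.

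The genes with which these proteins work did not all show the same shift. All 5 subunits with other symbols, Dap3, Ptcd3, Chchd1, Aurkaip1 and Gadd45gip1, had positive values, with a median of 0.26, and in all 5 miR-99 KD 2 was the highest library. Chchd1, a small subunit protein, was at 44.6 and 36.5 CPM in Scr and 45.0 and 58.4 CPM in miR-99 KD. Ptcd3, a pentatricopeptide repeat protein of the small subunit, was at 99.8 and 98.7 CPM in Scr and 111 and 119 CPM in miR-99 KD. Of 15 tested translation factors 13 were positive, with a median of 0.19, and miR-99 KD 2 was the highest library for 8. Their sum was 520 CPM in Scr 1 and 724, 747 and 710 CPM in the other libraries, with Mtrf1l, Lrpprc and Guf1 at 5.12-fold, 2.98-fold and 3.96-fold higher levels in Scr 2 than in Scr 1. By contrast, 12 of 27 genes for ribosome assembly and rRNA modification were positive (median −0.03), 8 of 17 mitochondrial tRNA synthetases (median −0.06) and 6 of 14 genes of mitochondrial transcription and its regulators (median −0.04). These medians lie near that of all genes tested, and miR-99 KD 2 was the highest library for 11 of the 27, 2 of the 17 and 5 of the 14. In none of these 5 lists did a gene reach an unadjusted p under 0.05 in edgeR's test. By the rule for naming genes, the translation factors were represented by Mrrf, the ribosome recycling factor, at 0.53 and Tufm, the elongation factor that brings tRNA, at 0.30. The assembly genes were represented by Malsu1, which joins the large subunit late in its assembly, at 0.63 and Tfb1m, the methyltransferase of the small ribosomal RNA, at 0.43. The synthetases were represented by Lars2 at 0.35 and Pars2 at −0.41, and transcription by Mterf2, a factor of the termination factor family, at −0.42 and Polrmt, the mitochondrial RNA polymerase, at −0.47.

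The mitochondrially encoded genes, which include both ribosomal RNAs, differed more than the proteins that bind them. Of 14 tested, all 14 were positive, with a median log2 fold change of 0.62. All 14 had both miR-99 KD libraries above both Scr libraries, against 18.9% of all genes. Their counts were very uneven: mt-Atp8 had 13 to 17 counts per library and mt-Co2 42 to 79, while mt-Co1 had 70475 to 151476. For the genes with few counts the distance between the groups is a matter of a few reads. The small subunit rRNA mt-Rnr1 was at 137 and 142 CPM in Scr and 261 and 313 CPM in miR-99 KD, a log2 fold change of 1.04 ± 0.17 (SE). The large subunit rRNA mt-Rnr2 was at 1205 and 1333 CPM in Scr and 2404 and 3013 CPM in miR-99 KD, a log2 fold change of 1.09 ± 0.18 (SE). The edgeR adjusted p was 0.421 for each, so neither passed the main test, and DESeq2 gave an adjusted p of 0.00762 for mt-Rnr1 and 0.00774 for mt-Rnr2. Of the 12 alternatives DESeq2 alone called either gene, the adjusted p ran up to 0.962, and the log2 fold change ran from 0.93 to 1.23 for mt-Rnr1 and from 0.95 to 1.31 for mt-Rnr2. Here miR-99 KD 1 also stood clear of both Scr libraries, which it did not for the summed large subunit proteins.

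**Figure D4:**
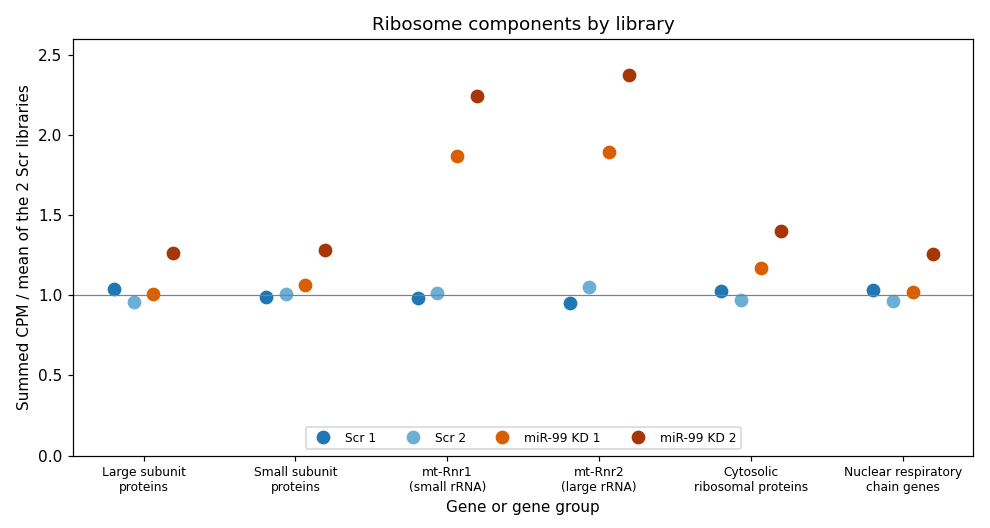
Summed CPM of each group of genes, or CPM of each rRNA, in each library, divided by the mean of the 2 Scr libraries. Both rRNAs lie far above 1 in both miR-99 KD libraries, while the sums of the large and small subunit proteins and of the nuclear respiratory chain genes lie clearly above 1 in miR-99 KD 2 only.

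Nuclear genes for other mitochondrial and ribosomal complexes had values of a like sign. Of 88 tested nuclear genes for the respiratory chain, 78 were positive, with a median log2 fold change of 0.25, and miR-99 KD 2 was the highest library for 78 (88.6%). In 30 of the 88 both miR-99 KD libraries lay above both Scr libraries (34.1%). Of 77 tested genes for cytosolic ribosomal proteins, 76 were positive, with a median of 0.37, and miR-99 KD 2 was the highest library for 73 (94.8%). In 66 of these both miR-99 KD libraries lay above both Scr libraries (85.7%). That share was 31.2% for the mitochondrial ribosomal protein genes and 18.9% for all genes. No difference between these groups of genes was tested.

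Transcript length moved with the libraries. The members' principal transcripts had a median length of 1316 bases, against 2639 bases over the 15519 tested genes with a length. Across these genes, which share the same libraries, the rank correlation of length with the log2 ratio of miR-99 KD 2 over miR-99 KD 1 was −0.35, and it was −0.25 across the 77 members. Genes under 1000 bases had a median log2 ratio of 0.28 between these libraries, and those of 4000 bases and over one of −0.31. The members had medians of 0.37 in 24 genes under 1000 bases, 0.31 in 28 genes from 1000 bases to under 2000, 0.30 in 16 genes from 2000 to under 4000 and 0.28 in 9 genes of 4000 and over. The distance between the members and all genes was thus small among short transcripts and wider among long ones. In the fold change between the groups, all genes ran from 0.20 in the shortest band to −0.11 in the longest. The members did not fall in this way, with 0.22, 0.16, 0.24 and 0.23 from the shortest to the longest band. The rank correlation of length with this fold change was −0.21 across all genes and 0.04 across the members.

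**Figure D5:**
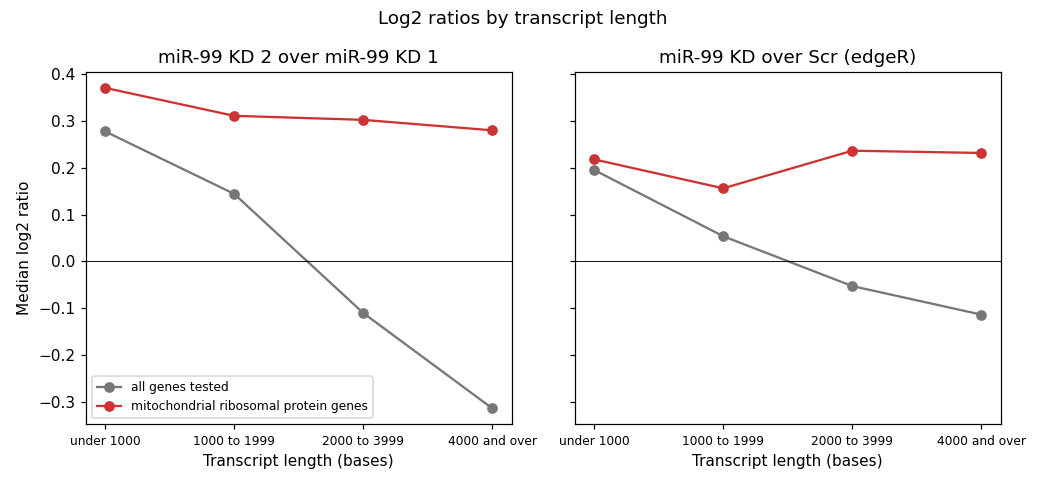
Median log2 ratio by band of transcript length, for all genes tested (grey) and the mitochondrial ribosomal protein genes (red), between the 2 miR-99 KD libraries (left) and between the groups (right). The grey line falls from short to long transcripts, from 0.28 to −0.31 on the left, and the red line stays between 0.28 and 0.37 on the left.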

How the data were processed

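Total RNA of 4 sorted cell samples, 1 per mouse, was extracted with Trizol LS and made into libraries by SMARTer amplification, a template-switching method, per the labels' protocols. The deposited values are raw counts of reads per Ensembl gene. Per the submitters' processing notes, STAR, Picard, HTSeq and DESeq2 were used with genome build mm9; no versions, annotation or strand setting are given in the sources used here. Categories that name no gene held 43.7% to 49.7% of entries and were left out of totals. They include alignments that were not unique (19.3% to 23.6%), so members with near-identical pseudogenes may be under-counted. Of the members, 32 have exons overlapping another gene, 7 of them on the same strand.

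Symbols, coordinates, UTRs and transcript lengths (APPRIS principal transcript) are those of GENCODE M21 on GRCm38, matched by identifier, and none were converted. Groups were compared two-sided by the quasi-likelihood method of edgeR 4.0.16 in R 4.3.3, with TMM factors (0.969 to 1.07). The default filter, minimum count 10, kept 15591 genes, over which p-values were adjusted by Benjamini-Hochberg. The script was tested on simulated data in which the changed genes had larger fold changes than any member. That test does not show whether shifts of the members' size would be found. Standard errors derive from the test statistic. An offset of 0.1 CPM was added for log2 ratios of single libraries. Alternatives were other scalings, other filters, DESeq2 1.42.0, limma-voom (limma 3.58.1), leaving out each library, a replicate block and other subunit assignments.

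By rule, the text names the 5 members with the smallest p in each direction, the 3 highest and 2 lowest per subunit by CPM per kb, and 13 members of set interest (such as Mrpl12, Mrps30), with 2 genes of smallest p from each related list. Mrpl46, Mrps11, Mrpl22, Mrps26 and the genes listed as not overlapping were named after their values were seen. The members and lists were chosen with earlier results of these data known.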

Additional observations from a re-analysis of the deposited data

How the results depend on the processing

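No member passed an adjusted p of 0.05 under any alternative run. The median log2 fold change stayed above 0 in all of them. With 1 library left out in turn it ran from 0.0621 to 0.398 in the large subunit and from 0.0447 to 0.442 in the small subunit, lowest without miR-99 KD 2 and highest without miR-99 KD 1; without Scr 1 it was 0.33 in each subunit, and without Scr 2 it was 0.14 in the small one. The lone library of a group is then assumed to vary like the others. Members at an unadjusted p under 0.05, higher, were 0 with upper-quartile factors, 0 with library totals alone and 0 to 13 with 1 library left out. Members whose miR-99 KD libraries both lay below Scr were 2 with the size factors of DESeq2 and 2 with upper-quartile factors, and those above were 5 with upper-quartile factors, 7 with library totals and 52 without Scr 1 (chosen after seeing the data).

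Of the 28 members named by rule, 2 turned sign with all libraries kept: Mrpl12 at −0.0275 and Mrps18b at −0.0250 with library totals, and at −0.0013 and −0.0030 with a minimum count of 50. On leaving out a library 12 turned, these 2 included, over the ranges −0.0560 to 0.203 (Mrpl12), −0.0622 to 0.204 (Mrps18b), −0.301 to 0.0610 (Mrpl2), −0.139 to 0.00957 (Mrpl24), −0.127 to 2.36 (Mrps30), −0.123 to 0.588 (Mrps36), −0.0200 to 0.486 (Mrpl20), −0.0127 to 0.546 (Mrps18c), −0.0793 to 0.316 (Mrps28), −0.0147 to 0.295 (Mrpl44), −0.0017 to 0.435 (Mrpl45) and −0.0997 to 0.295 (Mrps12). The cause was not tested. The titles number the libraries 1 and 2 in each group without saying that a number pairs mice. With the number as a replicate block, 0 members were called, 0 were at an unadjusted p under 0.05 and higher, and the medians were 0.19 and 0.22 for the large and small subunit; deviations of same-numbered libraries correlated at −0.43.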
